A study of Danio rerio with 24 samples.

Results

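The genes described here encode the protein subunits of the mitochondrial ribosome, and their transcripts were measured in male zebrafish liver. They were chosen by symbol. Every gene of the Ensembl count table whose symbol begins with mrpl or mrps and a digit, and whose mean count over the 24 libraries was at least 10, was taken as a member. This gave 74 members among 32105 genes listed, 47 with a large subunit symbol (mrpl) and 27 with a small subunit symbol (mrps). All 74 symbols found in the table passed the count minimum, so none was lost to it, and all 74 were tested in each comparison. The mean count per library ran from 30.1 to 281 (median 74.9), so no member lay close to the minimum.

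All fish were wildtype AB zebrafish, and a library held RNA of 6 male livers from a single tank, so that the tank is the replicate. Parental F0 fish were given the control feed, low in arachidonic acid (ARA, an n-6 polyunsaturated fatty acid), or the high ARA feed from 27 days post fertilization (DPF), were mated at 97 DPF and were sampled at 154 to 156 DPF. Their F1 progeny all ate the control feed and were sampled at 140 to 142 DPF. F1 high ARA therefore names the diet of the parents. Generation and age differ together in every F1 against F0 comparison and cannot be told apart. In the high ARA lineage the feed of the fish themselves differs as well, high ARA in F0 and control in F1. The feed of the parents of F0 fish is not given, so parental feed may differ too in both lineages. The paper names the diet of earlier generations and the sampling points among possible reasons for differences between generations. None of these can be told apart from generation and age. The 4 groups, named by generation and lineage (control or high ARA), had 6 libraries each.

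Mitochondria carry their own small genome, and the proteins it encodes, all of them parts of the respiratory chain and ATP synthase in vertebrates, are translated inside the organelle by a dedicated ribosome. The ribosomal RNAs of that ribosome come from mitochondrial DNA, but all of its proteins are encoded in the nucleus, made in the cytosol and imported. Some of them have a counterpart in bacterial ribosomes, and others occur only in mitochondrial ribosomes. The small subunit holds the messenger RNA and reads its codons, and the large subunit joins the amino acids and is anchored at the inner membrane. Among the members, 28 large and 15 small subunit genes were classed as having a bacterial counterpart, and 19 large and 10 small subunit genes as mitochondria only. Mrps18b is related to bacterial S18 by sequence and was placed in the mitochondria-only class, since it lies at another site in mammalian structures. Mrpl47 was placed there too, although it has a relative in the bacterial large subunit. The remaining pair, mrps18a and mrps30, is named for the small subunit but sits in the large subunit of mammalian structures.

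Total counts on Ensembl genes were between 5144880 and 15659321 per library, and all F1 high ARA libraries (8636978 to 11800367) were larger than all F1 control libraries (5144880 to 8493413). The 11 hepatocyte markers found in the table were all well expressed, and none of the 7 testis markers reached a mean of 1 CPM, the usual unit for a gene's count relative to the effective total count of its library. Pancreas and gut transcripts were carried along. The summed level of the 11 acinar markers had a median of 2125 CPM in F0 control, 2356 in F0 high ARA, 4607 in F1 control and 2489 in F1 high ARA. The enterocyte list, of which 8 genes were found, was dominated by apoa4b.1. Without that gene its summed level ranged from 9.64 to 1312 CPM over the libraries of the other 3 groups, but only from 47.3 to 72.7 CPM in F1 high ARA. In bulk tissue, a lower share of hepatocytes and less transcript per hepatocyte cannot be told apart.

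Per kilobase of gene model, the most abundant member was mrpl32, encoding a zinc-binding large subunit protein whose maturation by a protease is known from yeast and mouse to precede ribosome assembly, at 51.8 CPM per kb. It was followed by mrps14 (26.4 CPM per kb) and mrpl12 (20.5 CPM per kb). Mrpl12 lies on the stalk of the large subunit and, in human cells, also binds the mitochondrial RNA polymerase. Mrps12 of the decoding centre, mrpl38 and mrps30 had 16.9, 16.8 and 14.6 CPM per kb. The least abundant was mrpl39 with 2.91 CPM per kb, so that the levels of members spread over little more than 1 order of magnitude. Within groups, the coefficient of variation between libraries had a median between 13.1% and 18.9% over the genes of a subunit.

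The genes were scattered over 22 chromosomes in GRCz10, the build of the files. The closest pair, mrps11 and mrpl46, is transcribed in opposite directions away from each other on chromosome 7, with 220 bases between mrps11 (14266537 to 14290399) and mrpl46 (14290620 to 14298501). The next closest neighbours were mrpl16 and mrpl39 on chromosome 1, 1871 bases apart. Of the members, 9 share exon bases with another gene and 6 share more than 10%, among them mrps22 (11.03%, with ech1 on the same strand), mrpl4 (15.9%) and mrps18c (31.9%). Reads were counted without strand and reads overlapping several genes were left out, so the counts of these genes are less certain.

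The summed level of the 47 large subunit genes had a median of 482.6 CPM in F0 control (419.3 to 546.3), 468.0 CPM in F0 high ARA (440.5 to 518.3), 503.7 CPM in F1 control (439.3 to 578.6) and 528.1 CPM in F1 high ARA (501.0 to 637.7). All pairs of groups overlapped in this sum. The small subunit sum had medians of 256.8 CPM in F0 control (227.5 to 296.7), 253.2 CPM in F0 high ARA (236.2 to 277.5), 290.1 CPM in F1 control (253.6 to 320.4) and 305.7 CPM in F1 high ARA (284.0 to 372.6). In the high ARA lineage the small subunit sums of both generations did not overlap, since the highest F0 library lay below the lowest F1 library. The ratio of large to small subunit sums had a median of 1.84 (1.75 to 1.92) in F0 control. In F0 high ARA it was 1.86 (1.82 to 2.03). For F1 control the median was 1.76 (1.66 to 1.91), and for F1 high ARA 1.71 (1.66 to 1.83). In this ratio the generations overlapped in both lineages. Mrps18a and mrps30 were kept in the small subunit sum. Neither the sums nor their ratio were recomputed with these genes in the large subunit. These sums were described and not tested, because the list was chosen with earlier results of the data known.

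**Figure D1:**
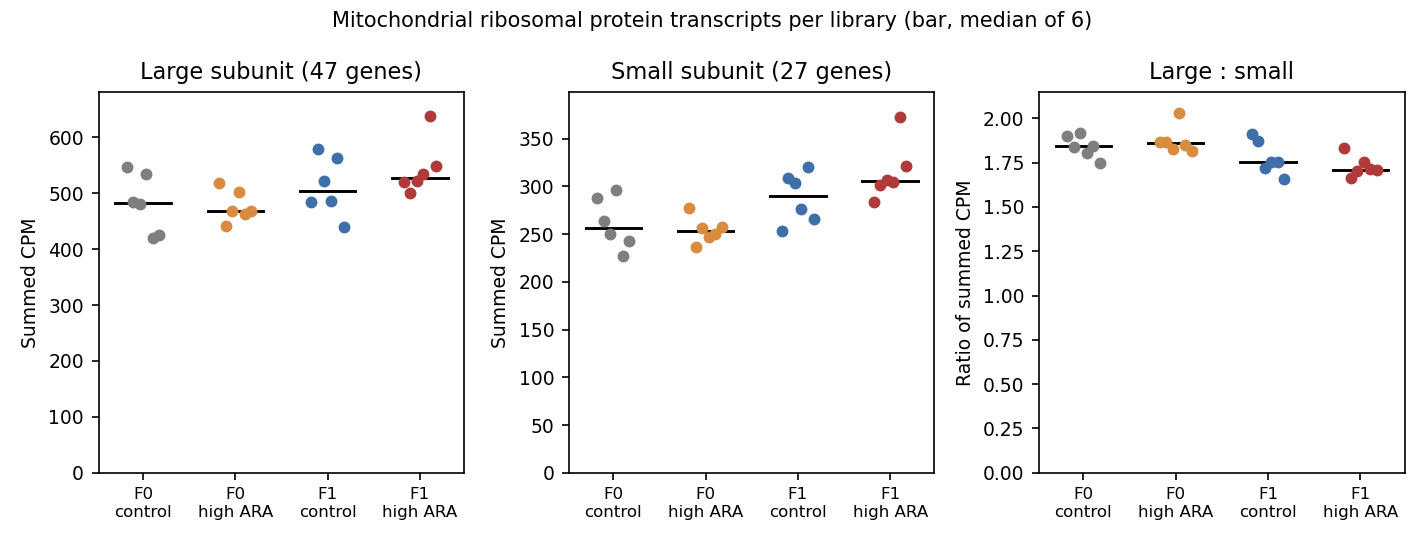
Summed CPM of the 47 large and 27 small subunit genes, and the ratio of these sums, in each of the 24 libraries (points) with the group median (bar, n = 6). The small subunit sums of F0 high ARA end at 277.5 CPM and those of F1 high ARA begin at 284.0 CPM, whereas the other pairs of groups overlap in both sums. The highest point in both sums is F1 high ARA replicate 17.

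In the high ARA lineage, F1 livers were compared with F0 livers to ask how progeny of high ARA parents differed from those parents. Transcripts of 13 mitochondrial ribosomal protein genes were higher in F1 high ARA and none was lower (edgeR quasi-likelihood F test, adjusted p under 0.05). In this comparison 16.9% of the 12150 genes tested were called, 8.4% of them higher and 8.53% lower. Against that background, 17.6% of the members were called higher. The split by subunit was uneven, as 8 of 27 small subunit genes (29.6%) but 5 of 47 large subunit genes (10.6%) were called. At an unadjusted p under 0.05, 28 members were higher (14 of each subunit) and none was lower, against 16.6% and 16.4% of all genes. The fitted fold was above 1 for 68 of 74 members (91.9%), against 50.5% of all genes. The median log2 fold change was 0.19 for large and 0.25 for small subunit genes, against 0.00 for all genes. Members measured in the same libraries are not independent of each other, and no test was made over the list.

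By structural class, the small subunit genes without a bacterial counterpart had the highest median. It was 0.48 on the log2 scale, and 5 of 10 were called (mrps31, mrps33, mrps26, mrps22 and mrps18b). Among small subunit genes with a bacterial counterpart the median was 0.21 and 3 of 15 were called (mrps2, mrps17 and mrps11). Large subunit genes had medians of 0.22 with a bacterial counterpart, 3 of 28 called (mrpl36, mrpl34 and mrpl4), and 0.18 without one, 2 of 19 called (mrpl40 and mrpl57). The shares called in the small subunit were 50% without and 20% with a counterpart. In the large subunit they were 10.5% and 10.7%, near the 8.4% of all genes called higher. With mrps18b counted among the bacterial counterparts instead, an assignment chosen after seeing the data, the small subunit medians were 0.44 without and 0.23 with a counterpart, with 4 of 9 and 4 of 16 called. The large subunit medians were not recomputed with mrpl47, which was not called, among the bacterial counterparts. The differences between the classes were not tested.

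The largest difference was that of mrps31, a mitochondria-only protein of the small subunit head (ENSDARG00000057855, chromosome 5, 23634646 to 23650264). Its level was 9.09, 10.8 and 16.2 CPM in F0 high ARA (lowest, median and highest library) and 15.6, 20.3 and 31.3 CPM in F1 high ARA. Only the highest F0 library reached into the F1 range. The fitted difference was 0.94 on the log2 scale (SE 0.18, edgeR adjusted p = 0.00455), a 1.92-fold higher level in F1, and the exact permutation test on log2(CPM + 0.5) gave p = 0.00433, two-sided. In F0 control mrps31 had 8.78, 10.8 and 17.2 CPM and in F1 control 9.49, 17.5 and 21.6 CPM, so that these groups overlapped.

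Mrps33 and mrps26, also mitochondria-only small subunit proteins, rose by similar amounts. Mrps33 (ENSDARG00000020015, chromosome 4, 12103418 to 12107190) had 4.24, 4.64 and 5.37 CPM in F0 high ARA and 5.59, 7.77 and 8.91 CPM in F1 high ARA. All F1 libraries lay above all F0 libraries, with a log2 fold change of 0.68 (SE 0.14, edgeR adjusted p = 0.00583). Mrps26 (ENSDARG00000039719, chromosome 13, 8971531 to 8979230) had 5.37, 7.89 and 8.60 CPM in F0 high ARA and 9.54, 11.9 and 14.3 CPM in F1 high ARA. Here too the groups did not overlap, and the log2 fold change was 0.71 (SE 0.15, edgeR adjusted p = 0.00649).

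Mrps2, the counterpart of bacterial S2 at the join of head and body of the small subunit, stood at 7.25, 8.94 and 9.79 CPM in F0 high ARA and at 10.8, 11.8 and 14.4 CPM in F1 high ARA (ENSDARG00000103198, chromosome 21, 7560451 to 7566573). F1 high ARA was the highest group for this gene, its lowest library exceeding all F0 high ARA and all F1 control libraries (6.67, 9.57 and 10.7 CPM), but not all of F0 control (6.48, 10.0 and 12.1 CPM). The log2 fold change between generations was 0.49 (SE 0.11, edgeR adjusted p = 0.0105). Mrps17, the counterpart of the rRNA-binding bacterial S17, was among the least abundant of the called genes, with 2.42, 3.25 and 4.01 CPM in F0 high ARA and 3.99, 5.28 and 6.63 CPM in F1 high ARA. The groups touched in a single library each, and the log2 fold change was 0.71 (SE 0.17, edgeR adjusted p = 0.0132).

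Mrps22, a mitochondria-only protein whose loss impairs oxidative phosphorylation in humans, had 7.95, 11.2 and 11.7 CPM in F0 high ARA and 13.2, 14.4 and 21.2 CPM in F1 high ARA. Mrps18b had 7.92, 9.30 and 11.4 CPM in F0 high ARA and 12.0, 12.9 and 20.7 CPM in F1 high ARA. Neither gene overlapped between the generations of this lineage, and the log2 fold changes were 0.51 (SE 0.14) for mrps22 and 0.56 (SE 0.15) for mrps18b, with edgeR adjusted p of 0.0206 and 0.0239. Mrps18b is 1 of 3 vertebrate relatives of bacterial S18. The other two, mrps18c of the small subunit and mrps18a of the large subunit, had log2 fold changes of 0.19 (SE 0.21) and 0.30 (SE 0.15) and were not called. Mrps11, a counterpart of bacterial S11 and the least secure call, had a log2 fold change of 0.34 (SE 0.11, edgeR adjusted p = 0.0497). It is named outside the rule for naming genes, after its value was seen.

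The 5 called large subunit genes had log2 fold changes between 0.40 and 0.51 and adjusted p-values close to the threshold. They make up 10.6% of the large subunit genes, near the 8.4% of all genes called higher. Mrpl36, a short zinc-binding protein with a bacterial counterpart, was the only large subunit gene without overlap, with 14.8, 19.1 and 21.8 CPM in F0 high ARA and 21.8, 23.5 and 31.9 CPM in F1 high ARA (log2 fold change 0.40, SE 0.12, edgeR adjusted p = 0.0364). The ranges met at the same rounded value. Mrpl40, a mitochondria-only protein, had 6.42, 7.24 and 8.36 CPM in F0 high ARA and 8.10, 9.41 and 12.998 CPM in F1 high ARA, with a log2 fold change of 0.46 (SE 0.13, edgeR adjusted p = 0.0287). Mrpl34 and mrpl4, both with bacterial counterparts and the latter lining the exit tunnel of the large subunit, had log2 fold changes of 0.49 (SE 0.15, edgeR adjusted p = 0.0376) and 0.41 (SE 0.13, edgeR adjusted p = 0.0388). The mitochondria-only mrpl57 had 0.51 (SE 0.16, edgeR adjusted p = 0.0392).

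**Figure D2:**
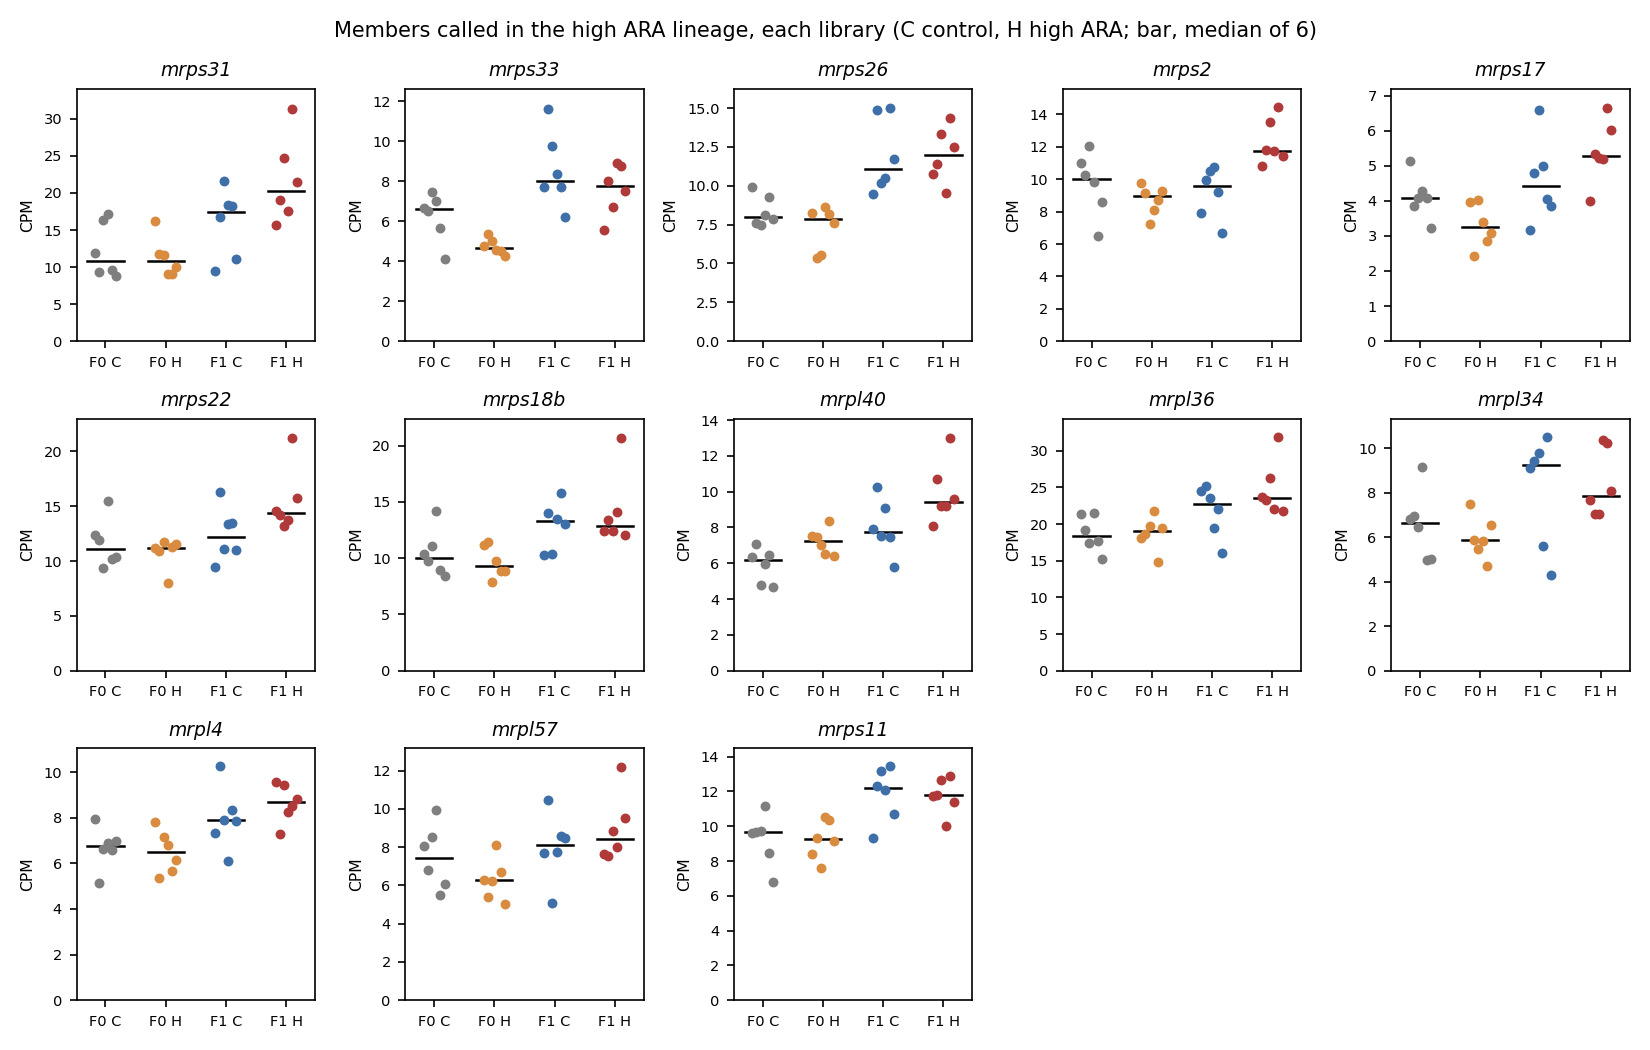
CPM of the 13 members called in the high ARA lineage, 1 panel a gene in order of p, with each library as a point and the group median as a bar (n = 6). F0 C and F0 H are F0 control and F0 high ARA, F1 C and F1 H are F1 control and F1 high ARA. In mrps33, mrps26, mrps2, mrps22, mrps18b and mrpl36 all F1 H points lie above all F0 H points.

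Groups that did not overlap were thus found for 5 of 27 small and 1 of 47 large subunit genes, all with F1 high ARA above F0 high ARA, against 3.97% of all genes in this direction and 3.15% in the other. Several members at the catalytic, stalk, membrane and decoding sites were not called. The peptidyl transferase proteins mrpl2 and mrpl3 had log2 fold changes of 0.10 (SE 0.15) and −0.13 (SE 0.17). The stalk proteins mrpl10, mrpl11 and mrpl12 had 0.29 (SE 0.16), 0.17 (SE 0.18) and 0.35 (SE 0.14), and the membrane anchor mrpl45 had 0.21 (SE 0.13). In the small subunit, mrps12, mrps7 and mrps5 had 0.11 (SE 0.10), 0.10 (SE 0.12) and 0.35 (SE 0.15), and mrps34 had 0.13 (SE 0.14). Among the abundant members, mrpl32, mrps14 and mrpl38 had −0.02 (SE 0.10), 0.07 (SE 0.11) and 0.03 (SE 0.11), and mrps30 had 0.25 (SE 0.10). Each of these log2 fold changes is F1 high ARA against F0 high ARA, and none passed the adjusted threshold.

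**Figure D3:**
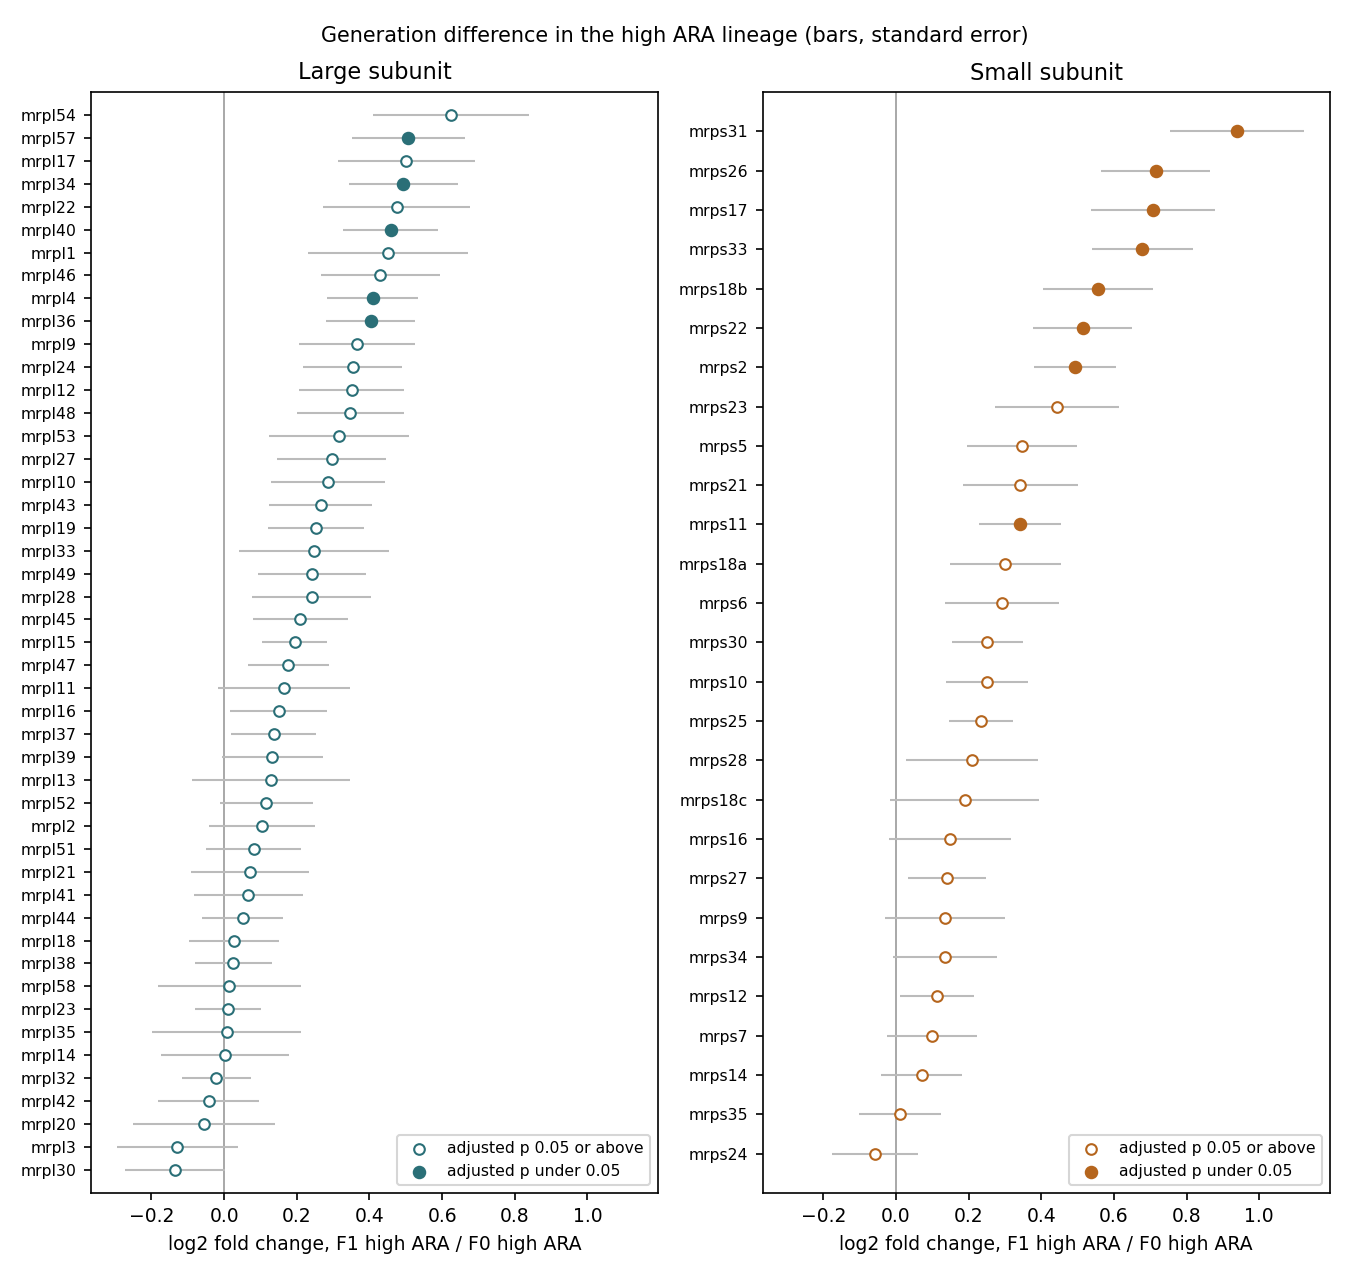
Log2 fold change of each member in F1 high ARA against F0 high ARA with its standard error, large subunit genes on the left and small subunit genes on the right. Filled points are the 5 large and 8 small subunit genes with an edgeR adjusted p under 0.05. The points run from mrps31 at 0.94 down to −0.14, and 68 of 74 lie above 0.

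The library F1 high ARA replicate 17 stood high for many members. It had the highest level of its group for 41 of 74 members and for 10 of the 13 called, with sums of 637.7 CPM for the large and 372.6 CPM for the small subunit genes. The same library had the lowest acinar marker sum of its group (1511 CPM) and the lowest sum of cytosolic ribosomal protein transcripts (45531 CPM, group median 58784 CPM), and of all 24 libraries it had the lowest hepatocyte marker sum (120182 CPM) and the lowest macrophage and leukocyte marker sum (119.7 CPM). The part of these in the result was not tested. Without it, 7 members (9.46%) were called, all of them small subunit genes, against 5.52% of all genes called higher in that fit. Without F0 high ARA replicate 15 there were also 7, of which 6 were small subunit genes, against 6.62% of all genes. Without F0 high ARA replicates 14, 17 or 18, 8 members (10.8%) were called in each case, against 7.16%, 6.29% and 6.35% of all genes. The 5 genes mrps31, mrps33, mrps26, mrps2 and mrps17 passed the threshold in each of the 12 fits that left out a library and in each of the 10 other fits tried for single genes.

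Beside these fits, scaling by library totals alone called 7 members (9.46%), all small subunit genes, against 7.61% of all genes called higher in that fit, so that the share of members lay near that of all genes. Adding the acinar and enterocyte marker scores as covariates called 8 (10.8%), against 5.88% of all genes. The median fold stayed positive in both subunits in each of these fits. When counts were thinned to the smallest total of the 12 libraries, 11 were called (14.9%, against 7.60% of all genes).

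Some markers of other cells were also called in this comparison, where 8.4% of all genes were called higher and 8.53% lower. Of 11 macrophage and leukocyte genes tested, 2 (18.2%) were lower and none was higher. Several of the 11 share the symbol mfap4, so they are not 11 separate markers. Their median log2 fold change was −0.48, and the summed level of the list was 146.0 to 404.7 CPM in F0 high ARA against 119.7 to 239.6 CPM in F1 high ARA. Of 5 enterocyte markers 1 was higher (apoa4b.1) and 1 lower (vil1). Of 11 hepatocyte markers 1 was higher (9.09%), near the share of all genes. Of 11 acinar and 4 erythrocyte markers none was called by edgeR, with 0 and 1 at an unadjusted p under 0.05. The part of these in the result was not tested.

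In the control lineage, F1 control livers were compared with F0 control livers, both from fish given the control feed. The parents of F1 control had eaten it too, while the feed of the parents of F0 is not given. No member was called (edgeR), against 2.34% of the 11729 genes tested (0.759% higher and 1.59% lower). DESeq2 called none either, against 2.06% of all genes higher and 3.17% lower. At an unadjusted p under 0.05 there were 5 higher and 1 lower, against 7.89% and 10.2% of all genes. No member had groups without overlap, against 0.985% and 1.34% of all genes above and below. The fitted fold was above 1 for 54 of 74 members, against 48.9% of all genes, and the median log2 fold change was 0.11 for large and 0.14 for small subunit genes. The large subunit median was 0.05 without F1 control replicate 8, 0.06 without F1 control replicate 11 or F0 control replicate 11, 0.07 without F0 control replicate 12 and 0.04 with library totals only, which gave 0.09 for the small subunit genes and −0.06 for all genes. Mrps26 came closest, with 7.49, 8.01 and 9.93 CPM in F0 control and 9.49, 11.1 and 14.97 CPM in F1 control, a log2 fold change of 0.49 (SE 0.14, edgeR adjusted p = 0.0801). Only the highest F0 control library exceeded the lowest F1 control library. Mrpl3, which lies near the peptidyl transferase centre, had the lowest value, with 11.1, 16.8 and 21.1 CPM in F0 control and 7.12, 11.004 and 14.3 CPM in F1 control (log2 fold change −0.55, SE 0.18, edgeR adjusted p = 0.112).

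The lineages share no libraries, so their values can be set side by side. Both fitted differences were above 0 for 31 large and 21 small subunit genes, and neither was for 3 large genes and 1 small gene. Of 74 members, 68 were above 0 in the high ARA lineage and 54 in the control lineage. Most members therefore had to be above 0 in both, whatever the relation between the lineages. The share of all genes above 0 in both was not counted. Of the 13 genes called in the high ARA lineage, 12 had a positive value in the control lineage (median 0.27, range −0.09 to 0.49), as had 42 of the other 61 members (median 0.09). The exception was mrps2, at −0.09 (SE 0.16) in the control lineage. The values of mrps33, mrpl40 and mrps11 in the control lineage were 0.44 (SE 0.17), 0.42 (SE 0.16) and 0.34 (SE 0.13), against 0.68, 0.46 and 0.34 in the high ARA lineage. For mrps31, mrps18b, mrps17 and mrps22 they were 0.38 (SE 0.22), 0.28 (SE 0.15), 0.14 (SE 0.18) and 0.09 (SE 0.15).

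**Figure D4:**
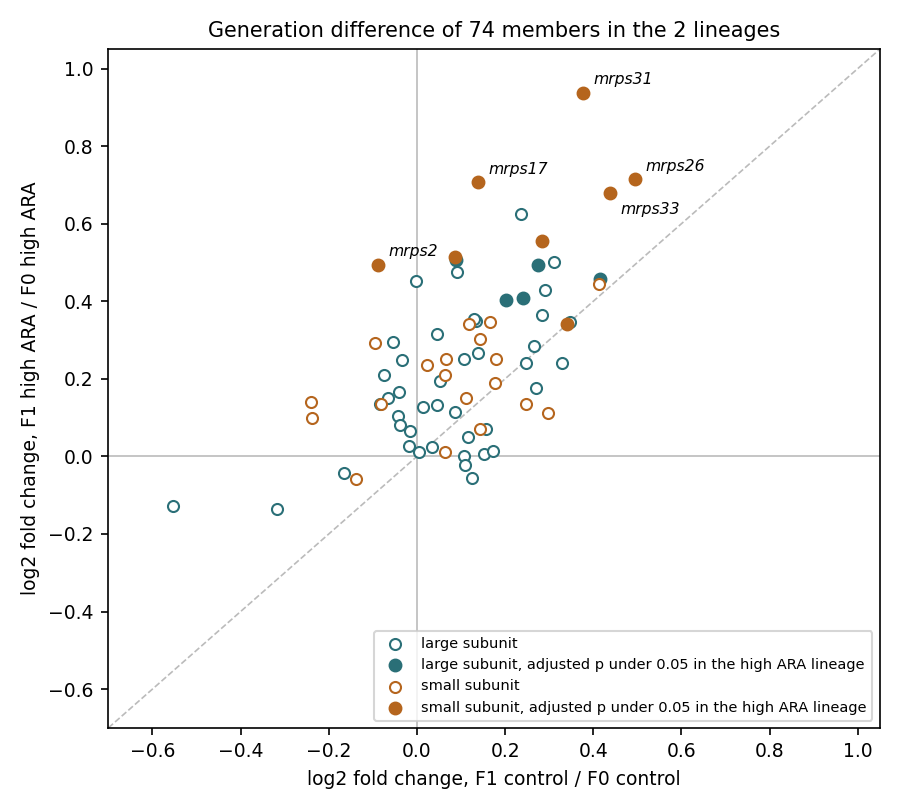
Log2 fold change of F1 control against F0 control (x axis) and of F1 high ARA against F0 high ARA (y axis) for the 74 members. The dashed line marks equal values and filled points are the 13 members called in the high ARA lineage. The quadrant where both are positive holds 31 large and 21 small subunit genes, and mrps2 is the only filled point left of 0 on the x axis.

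Whether the generation difference depended on the lineage was tested by the diet by generation interaction on all 24 libraries. Diet here means the feed of the fish themselves in F0 and that of the parents in F1. No member was called by edgeR or by DESeq2, and in edgeR 0.109% of the 11974 genes tested were (0.0585% higher and 0.0501% lower). In DESeq2 0.501% of all genes were called higher and 0.484% lower. At an unadjusted p under 0.05, 4 of 74 members were higher and none was lower, against 6.91% of all genes in that direction and 5.99% in the other. The share of members was thus not above that of all genes. These 4 were the small subunit genes mrps2, mrps27, mrps17 and mrps22. For mrps2 the difference between lineages was 0.58 on the log2 scale (SE 0.19, edgeR adjusted p = 0.229), for mrps17 it was 0.56 (SE 0.24), for mrps22 0.42 (SE 0.20) and for mrps27, a protein with RNA-binding repeats, 0.38 (SE 0.15). The large subunit gene with the smallest p was mrpl57, at 0.41 (SE 0.24, edgeR adjusted p = 0.470). The greater number of calls in the high ARA lineage is therefore not shown to be a difference between the lineages for any single member. The median interaction was 0.12 for large and 0.18 for small subunit genes, against 0.01 for all genes, and 57 of 74 members were above 0 against 51.4% of all genes. Without F1 high ARA replicate 17 these medians were 0.06 and 0.12 with 50 of 74 above 0, and with the marker scores as covariates they were 0.05 and 0.14, again with 50 of 74. With library totals only they were 0.23 and 0.28, against 0.12 for all genes.

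In F1 livers, progeny of high ARA parents were compared with progeny of control parents, all raised on the control feed. No member was called by edgeR, against 1.93% of the 11690 genes tested (0.932% higher and 1% lower). DESeq2 also called no member, against 2.48% of all genes higher and 2.74% lower. At an unadjusted p under 0.05 there were 6 higher and 1 lower, against 9.35% and 10.4% of all genes. The fitted fold was above 1 for 57 of 74 members (77.03%), against 50.6% of all genes, with median log2 fold changes of 0.10 for large and 0.15 for small subunit genes. These medians fell to 0.03 and 0.02 with the acinar and enterocyte scores as covariates, with 43 of 74 members above 0. Without F1 high ARA replicate 17 they were 0.03 and 0.06 with 45 of 74 above 0, and without F1 control replicate 12 the large subunit median was 0.06. They rose to 0.23 and 0.28 with library totals as the only scaling, which also moved the median of all genes from 0.00 to 0.13.

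Mrps2 was the only member whose libraries did not overlap between the F1 groups, against 1.01% of all genes in that direction and 1.28% in the other. Its levels, given above, differed by 0.42 on the log2 scale (SE 0.13, edgeR adjusted p = 0.107). The exact permutation test gave p = 0.00216, two-sided, the smallest it allows. Any groups without overlap give this value, so it adds nothing to the separation. Mrpl2, a core protein of the peptidyl transferase region, had 12.8, 14.5 and 21.8 CPM in F1 control and 16.99, 20.8 and 23.8 CPM in F1 high ARA. Its F1 control group held a single high library, replicate 8, and the log2 fold change was 0.42 (SE 0.13, edgeR adjusted p = 0.109). Without that library it was 0.55 and passed the threshold (edgeR adjusted p = 0.0447). Leaving out the highest library of the lower group had to widen the difference, so this call adds no evidence. The other members higher at an unadjusted p under 0.05 were mrpl16 (0.32, SE 0.12), mrps7 (0.32, SE 0.14), mrps27 (0.30, SE 0.13) and mrps31 (0.44, SE 0.21). Mrpl32, the most abundant member, was the single one lower, with 29.4, 38.1 and 50.02 CPM in F1 control and 28.8, 31.1 and 36.3 CPM in F1 high ARA (log2 fold change −0.31, SE 0.12, edgeR adjusted p = 0.172).

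In F0 livers, the direct effect of the high ARA feed was compared with the control feed. The median log2 fold change was −0.02 for large and −0.05 for small subunit genes, against −0.02 for all genes. Above 0 were 29 of 74 members, against 47.1% of all genes. By subunit these were 22 of 47 large (46.8%) and 7 of 27 small subunit genes (25.9%). No gene of the 12194 tested was called by edgeR (0%). DESeq2 called no member, against 0.165% of all genes higher and 0.083% lower. At an unadjusted p under 0.05, 2 members were lower and none was higher, against 3.44% and 3.99% of all genes, and no member had groups without overlap, against 0.2% and 0.301%. Mrps33 had 4.12, 6.60 and 7.49 CPM in F0 control against 4.24, 4.64 and 5.37 CPM in F0 high ARA (log2 fold change −0.40, SE 0.15, edgeR adjusted p = 0.594). For this gene F0 high ARA was the lowest and tightest group, whereas F1 control had 6.23, 8.04 and 11.6 CPM and overlapped F1 high ARA. Mrpl3 had 9.59, 11.4 and 17.3 CPM in F0 high ARA, a log2 fold change of −0.40 against F0 control (SE 0.17, edgeR adjusted p = 0.637). Mrpl40, by contrast, had 4.66, 6.18 and 7.09 CPM in F0 control, below its median in F0 high ARA, with a log2 fold change of 0.28 (SE 0.13, edgeR adjusted p = 0.679).

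Other genes needed to build and run the mitochondrial ribosome were read from fixed lists. In the high ARA lineage, where 8.4% of all genes were called higher and 8.53% lower, 2 of 5 ribosomal proteins that carry other symbols were higher. Aurkaip1, a small subunit protein, had a log2 fold change of 0.77 (SE 0.19, edgeR adjusted p = 0.0153) and gadd45gip1, a large subunit protein, 0.34 (SE 0.11, edgeR adjusted p = 0.0494). Of 26 assembly and ribosomal RNA factors, 6 (23.1%) were higher and none lower, and the median was 0.40. They were mpv17l2, an inner membrane protein needed for assembly (1.75, SE 0.38), the rRNA methyltransferase mrm3b (0.72, SE 0.16), tfb1m, which dimethylates the small subunit rRNA (0.77, SE 0.21), the GTPases noa1 (0.61, SE 0.17) and gtpbp10 (0.47, SE 0.15), and the RNA-binding fastkd2 (0.47, SE 0.12). These 6 had edgeR adjusted p-values between 0.00873 and 0.0444.

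Of 15 translation factors, tufm, the elongation factor that delivers aminoacyl-tRNA, was the only call in the high ARA lineage (0.41, SE 0.12, edgeR adjusted p = 0.0335). That is 6.67% of the list, below the 8.4% of all genes called higher. Among 10 genes of mitochondrial transcription and RNA stability, tfb2m, a transcription initiation factor (0.56, SE 0.16), and supv3l1, a helicase of RNA decay (0.51, SE 0.16), were higher, 20% of that list. None of 13 mitochondrial aminoacyl-tRNA synthetases was called by edgeR and 1 had an unadjusted p under 0.05, with a median of −0.05. In the control lineage no gene of these 5 lists was called by edgeR, the assembly factors having a median of 0.25 with 7 of 24 higher at an unadjusted p under 0.05, against 7.89% of all genes.

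The lists that border on the mitochondrial ribosome had other values. For the cytosolic ribosomal proteins the median log2 fold change in the high ARA lineage was −0.17, with 3 of 82 (3.66%) above 0. Of the 82, 1 was called higher and 2 lower (1.22% and 2.44%), shares below those of all genes. At an unadjusted p under 0.05, 2 were higher and 21 lower, against 16.6% and 16.4% of all genes. In the F1 diet comparison their median was −0.29, with none called by edgeR and 70 lower at an unadjusted p under 0.05, against 10.4% of all genes. DESeq2 calls were not counted for this list here. The authors, using DESeq2, listed cytosolic ribosomal protein genes among those called between these F1 groups. The 85 nuclear genes of oxidative phosphorylation had a median of 0.01 in the high ARA lineage, 2 higher and 1 lower (2.35% and 1.18%). The 13 protein genes of mitochondrial DNA, which are translated by this ribosome, showed no call in the high ARA lineage (median −0.04, with 1 gene at an unadjusted p under 0.05). In the control lineage mt-atp8, mt-atp6 and mt-nd5 were higher, with log2 fold changes of 0.56 (SE 0.13), 0.49 (SE 0.11) and 0.37 (SE 0.09). That is 23.1% of the list, against 0.759% of all genes. At an unadjusted p under 0.05, 10 of the 13 were higher, against 7.89% of all genes. In F1 high ARA against F1 control mt-co3, mt-nd3 and mt-nd1 were lower, at −0.39 (SE 0.09), −0.36 (SE 0.08) and −0.33 (SE 0.08). This again is 23.1% of the list, against 1.00% of all genes. Here 11 of the 13 were lower at an unadjusted p under 0.05, against 10.4% of all genes. The 13 genes lie on the same mitochondrial DNA and were measured in the same libraries, so their calls are not independent of each other. The summed level of the 13 genes was highest in F1 control, at 78355 to 94366 CPM. It was 63303 to 73140 CPM in F1 high ARA, 61307 to 80011 CPM in F0 control and 65167 to 72856 CPM in F0 high ARA.

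**Figure D5:**
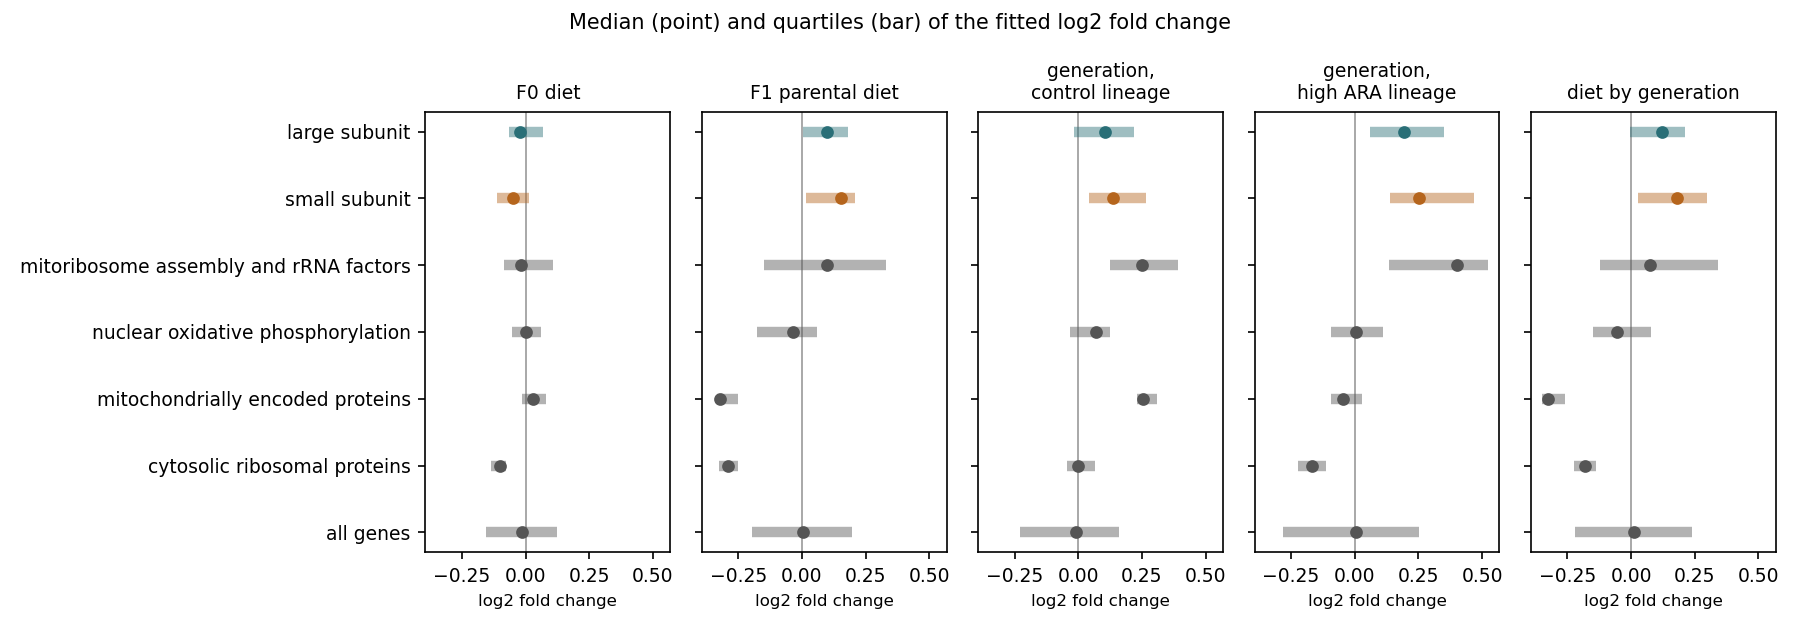
Median (point) and quartiles (bar) of the log2 fold change of each gene list, in the 5 comparisons from left to right, with all genes tested in the lowest line. In the panel of the high ARA lineage the large and small subunit genes have medians of 0.19 and 0.25 and the assembly factors 0.40, while the cytosolic ribosomal proteins have −0.17 and all genes 0.00. Comparisons that share a group of libraries are not independent of each other.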

How the data were processed

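RNA of 24 liver pools was sequenced on stranded mRNA libraries. The authors mapped reads with HISAT2 to GRCz10, and deposited counts per gene from featureCounts (1.5.0-p3 per the file headers), for Ensembl release 85 and for RefSeq. Counts were neither normalized nor filtered, and were made without strand, leaving out reads with more than 1 mapping position or gene. The 12 count columns of each table that belong to no sample described here were not used. FastQC 0.11.5 is named in the submitters' processing notes.

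Symbols came from a gene name table for 73 members and from a supplementary table for mrpl22. In the RefSeq counts 75 members were found, mrps15 being the additional one, and 74 were joined. All 276 pairs of libraries differed by more than counting noise (chi-square per degree of freedom at least 8.34). Levels are CPM with TMM factors over all libraries. The 12 libraries of a comparison were fitted alone in edgeR 4.0.16 and R 4.3.3 (TMM, robust quasi-likelihood F test) for genes averaging 10 counts or more in them, and the interaction used 24. Benjamini-Hochberg adjustment ran over all genes tested, and calls were made under an adjusted p of 0.05. The SE is the absolute log2 fold change divided by the square root of F. Single genes were also tested by an exact two-sided permutation over 924 assignments of 6 and 6 libraries, whose smallest p is 0.00216. Libraries are separate tanks, so p-values measure the spread between tanks. The labels do not say which F0 fish were the parents of each F1 tank. It is therefore not known whether that spread includes the spread between sets of parents.

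The members and lists were chosen with earlier results of these data known. Genes were named by this rule: up to 6 called members with the smallest p in each subunit and direction, the 3 most abundant per kb in each subunit, a list of genes of known role, and the member of each subunit with the smallest p where none was called. Further values of these genes were given where their unadjusted p was under 0.05 or they were called in another comparison. Called genes were named for the lists that build and run the mitochondrial ribosome and for the protein genes of mitochondrial DNA. In the other lists called genes were counted, and only apoa4b.1 and vil1 were named. Promoter and protein sequences were not used here. Alternatives were DESeq2 1.42.0, RLE factors or library totals, other filters, RefSeq counts, thinned counts, acinar and enterocyte scores as covariates, all 24 libraries in 1 fit, the replicate number as a block, another subunit assignment of mrps18a and mrps30, another class for mrps18b, and each library left out. The code was tested on data simulated for the high ARA lineage, with 200 changed genes and the same spread set for every gene. It called 18% of genes with a true log2 fold change of 0.6 in either direction and 73.2% of those with 1. The simulation changed 200 of 12050 genes, whereas 2058 of 12150 were called in the real comparison. A call thus needed a smaller unadjusted p in the simulation, and these shares do not carry over to the real fit. A gene that was not called may still differ. The share recovered in the real data was not tested. Deviations of same-numbered F0 and F1 libraries were not clearly related, so the numbers were not used as pairs in the main fits. This does not exclude a pairing.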

Additional observations from a re-analysis of the deposited data

Results flagged for a closer look

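For 31 named genes and 3 summary values, 136 groups of 6 libraries were checked for a library that stood apart from the others by Dixon's test, and 11 did, where chance alone gives about 1 in 20.

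In F1 high ARA, replicate 17 stood above its group in 3 values, with 637.7 CPM summed over the large subunit genes (group median 528.1), 21.2 CPM for mrps22 (median 14.4) and 20.7 CPM for mrps18b (median 12.9). In the same group mrps14 was lowest in replicate 16, at 17.5 CPM (median 21.2). In F0 high ARA, replicate 16 had the lowest mrps22 level, 7.95 CPM (median 11.2), and the highest ratio of large to small subunit sums, 2.03 (median 1.86).

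In F1 control, replicate 11 was highest for mrpl10, at 7.91 CPM (median 4.65), and for mrps12, at 20.5 CPM (median 13.6), and replicate 8 for mrpl2, at 21.8 CPM (median 14.5). In F0 control, replicate 10 was highest for mrps34, at 12.0 CPM (median 8.52), and replicate 12 for mrps7, at 15.05 CPM (median 12.4).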

How the results depend on the processing

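The number of members called higher in the high ARA lineage, 13, fell to 7 with library totals only and to 8 with the enterocyte and acinar scores as covariates (7.61% and 5.88% of all genes called higher, against 8.4%). It ran from 7 to 14 when each library was left out in turn, with the lowest number without F0 high ARA replicate 15 and without F1 high ARA replicate 17 (6.62% and 5.52% of all genes). In the other fits it was between 9 and 14, the lowest being the replicate block with 9, of which 8 were among the 13 (5.90% of all genes). Correlations of same-numbered deviations lay between −0.36 and 0.27 in the control lineage and −0.07 and 0.09 in the high ARA lineage. In each lineage 1 of 6 libraries was closest to its own number. With 6 pairs per lineage, these values cannot decide whether the replicate numbers pair the samples. The block made no call in the control lineage or the interaction, and the diet comparisons share no replicate numbers. In the control lineage 1 member, mrps26, was called with all 24 libraries in 1 fit. In the F1 diet comparison between 0 and 1 were called when a library was left out. Its small subunit median moved from 0.15 to 0.0152 with the marker covariates. For each of these the cause was not tested. With mrps18a and mrps30 counted in the large subunit, the large and small subunit medians were 0.21 and 0.25 in the high ARA lineage. They were 0.11 and 0.12 in the control lineage and 0.12 and 0.20 in the interaction. The medians of the diet comparisons did not change.

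Scaling by library totals turned the all-gene calls of the F1 diet comparison from 0.932% higher and 1.00% lower to 1.46% and 0.556%, and those of the interaction from 0.0585% and 0.0501% to 0.0835% and 0.0418%, moving the median of all genes in the latter from 0.01 to 0.12. Among uncalled genes of the high ARA lineage, mrpl32 turned from −0.02 to 0.0201 with library totals and 0.0141 without a low-count filter, and ran from −0.0619 (without F1 high ARA replicate 14) to 0.0344 (without F0 high ARA replicate 18) when a library was left out. Mrpl38, at 0.03, ran from −0.0409 (without F0 high ARA replicate 18) to 0.0676 (without F0 high ARA replicate 13). Mrps14 turned from 0.07 to −0.0079 with the covariates. Mrpl54, outside the naming rule and named after its value was seen, had an edgeR adjusted p of 0.0581 (log2 fold change 0.63) and was called by DESeq2 (0.0449), in the joint fit (0.0447), with the replicate block (0.0415) and without F1 high ARA replicate 13 or 18. Mrps11 lost its call in 11 of 12 fits that left out a library and in 8 of 10 others. The depth limits single members, whose mean counts were 30.1 to 281. In the RefSeq counts mrps15 had a log2 fold change of 0.07 in the high ARA lineage.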
